A study of Mus musculus with 28 samples.

Results

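The insulin-like growth factor (IGF) axis of the mouse arteriovenous fistula (AVF) was followed through 10 genes chosen by symbol: the ligands *Igf1* and *Igf2*, the receptor *Igf1r*, the binding proteins *Igfbp2*, *Igfbp3*, *Igfbp4*, *Igfbp5* and *Igfbp6*, the related *Igfbp7*, and the protease *Pappa2*. All 10 were found among the 56980 genes of the bulk table and in the 3 single-cell matrices. They were chosen because their levels had been seen to differ between contralateral veins and AVFs in these same libraries, so their bulk differences are given as a description, with no *p* value. In the bulk comparisons 9 of the 10 passed the filter on low counts, and *Igf2* did not.

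IGF ligands bind a tyrosine kinase receptor on the cell surface and drive growth, survival and matrix synthesis in vascular wall cells. Most extracellular ligand is held by binding proteins, which carry it, keep it from the receptor or, when bound to matrix, store it near cells. Pappalysins are secreted metalloproteases that cut some of these binding proteins and free the ligand, and stanniocalcins block the pappalysins.

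Bulk RNA sequencing was done on single vessels of male and female C57BL/6 mice. The 25 libraries came from 7 contralateral jugular veins, 8 early AVFs (labelled day 3), 5 mid AVFs (day 10) and 5 late AVFs (day 21), where the AVF is the outflow vein joined to the carotid artery. All mice, including those that gave contralateral veins, had a subtotal nephrectomy before the AVF was made, so vessels of animals with full kidney mass were not compared here. Single-cell RNA sequencing gave 1 library from each of the contralateral, early and late vessels, and each library was a pool of vessels from male and female mice. The paper gives later mean harvest days for early and late AVFs in the single-cell assay than in bulk. The mice of the bulk libraries were 5 females and 2 males for the veins, 3 and 5 for early, 3 and 2 for mid, and 3 and 2 for late AVFs.

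Bulk libraries held 20254173 to 67457501 counts. The defining genes of vessel wall cells were present in every library. Summed over 8 markers, smooth muscle genes reached 11100 to 23420 counts-per-million (CPM) in contralateral veins and 1112 to 3985 CPM in AVFs, and 8 endothelial markers 2248 to 4565 CPM against 314.7 to 866.1 CPM. Markers of mono/macros went the other way, from 1786 to 7306 CPM in contralateral veins to 11260 to 34450 CPM in early AVFs. Genes of tissue that lies near the vessels stood apart in some AVFs: 4 parathyroid markers exceeded 1000 CPM in 3 libraries (early AVF 1, mid AVF 12, late AVF 19) and 6 skeletal muscle markers did so in 7. In whole vessels, fewer cells of a type and less RNA per cell cannot be told apart. The part that cell makeup and adjoining tissue had in the differences below was not tested, and the counts are also given without those libraries.

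*Pappa2*, *Igfbp2* and *Igfbp5* had the largest early fold changes among the members and lie on the same chromosome. In GRCm38 *Igfbp2* occupies chr1:72824503-72852474 on the plus strand and *Igfbp5* chr1:72857932-72874884 on the minus strand, so they are tail-to-tail neighbours, whereas *Pappa2* lies at chr1:158711727-158980490 on the minus strand. Of the others, *Igf1* lies at chr10:87858265-87937042, *Igf2* at chr7:142650766-142666816, *Igf1r* at chr7:67952827-68233668, *Igfbp3* at chr11:7206086-7213923, *Igfbp4* at chr11:99041244-99054392, *Igfbp6* at chr15:102144362-102149511 and *Igfbp7* at chr5:77349240-77408041. The 250 bases before each RefSeq start of these 3 genes and of *Igf1*, the ligand that took another course, are shown side by side. *Igfbp2* has 2 such starts and both windows are printed, the first upstream of the gene span given above. The second *Igfbp2* window and those of *Pappa2* and *Igf1* lie inside those spans, so they precede a start within the annotated gene. Positions are in RefSeq GRCm38.p6, and the sequences read 5′ to 3′ on the strand of the gene. Capitals mark matches to TGANTCA (an AP-1 site) or GGAATG (a TEAD site), searched on both strands together with the CArG box that serum response factor binds.
Pappa2, chr1:158958176-158958425, minus strand: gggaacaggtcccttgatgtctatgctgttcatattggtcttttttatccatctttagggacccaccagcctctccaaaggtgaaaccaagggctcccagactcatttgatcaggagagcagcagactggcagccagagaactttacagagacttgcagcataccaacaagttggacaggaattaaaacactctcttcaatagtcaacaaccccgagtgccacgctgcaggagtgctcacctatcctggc
Igfbp2, first start, chr1:72824230-72824479, plus strand: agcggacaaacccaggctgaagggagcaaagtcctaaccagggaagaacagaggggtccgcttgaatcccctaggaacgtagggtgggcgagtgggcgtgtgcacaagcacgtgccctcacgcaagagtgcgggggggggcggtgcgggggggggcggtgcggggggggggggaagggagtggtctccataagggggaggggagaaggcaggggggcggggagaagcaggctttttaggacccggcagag
Igfbp2, second start, chr1:72825137-72825386, plus strand: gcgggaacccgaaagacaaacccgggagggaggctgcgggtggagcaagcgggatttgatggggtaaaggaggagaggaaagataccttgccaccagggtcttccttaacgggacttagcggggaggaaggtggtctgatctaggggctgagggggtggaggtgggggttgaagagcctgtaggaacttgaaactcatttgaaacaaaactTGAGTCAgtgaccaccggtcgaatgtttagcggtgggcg
Igfbp5, chr1:72874866-72875115, minus strand: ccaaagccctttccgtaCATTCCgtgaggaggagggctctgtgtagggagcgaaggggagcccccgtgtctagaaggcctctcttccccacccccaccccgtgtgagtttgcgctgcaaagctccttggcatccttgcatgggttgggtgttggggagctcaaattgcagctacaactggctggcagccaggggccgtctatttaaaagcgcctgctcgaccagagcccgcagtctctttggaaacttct
Igf1, chr10:87860861-87861110, plus strand: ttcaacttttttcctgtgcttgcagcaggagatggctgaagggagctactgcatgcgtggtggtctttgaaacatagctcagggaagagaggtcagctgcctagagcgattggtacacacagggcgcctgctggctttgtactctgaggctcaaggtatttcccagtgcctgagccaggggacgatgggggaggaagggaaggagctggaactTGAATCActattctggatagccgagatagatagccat
Of 32851 such windows in the genome 6.75% held the AP-1 letters, 12.6% the TEAD letters and 1.47% a CArG box. The AP-1 letters stood 39 to 33 bases before the second start of *Igfbp2* and 37 to 31 bases before that of *Igf1*, and the TEAD letters 233 to 228 bases before the start of *Igfbp5*. The window of *Pappa2* and the first window of *Igfbp2* held none of the 3 motifs. All 10 members had a window, 14 in all because *Igf2* and *Igfbp2* have several starts, and the AP-1 letters were found in windows of 2 members, the TEAD letters in 2 and a CArG box in 1 (*Igf2*). A match is a description of the letters and does not show that a factor binds.

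*Pappa2*, the pappalysin that cuts *Igfbp3* and *Igfbp5* protein, had the largest bulk fold changes among the members. Contralateral veins ranged from 45.3 to 415 CPM with a median of 65.3, and early AVFs from 0 to 1.38 CPM with a median of 0.487, 3 of the 8 at 0. The mid AVFs measured 1.47, 1.88, 2.16, 2.48 and 2.93 CPM and the late AVFs 4.98, 5.42, 10.6, 13.2 and 19.1 CPM. No AVF at any time overlapped a contralateral vein, and the 3 AVF groups did not overlap each other, each later group lying above the earlier. In these comparisons with veins the groups did not overlap for 6.82%, 12% and 10.5% of all tested genes in early, mid and late AVFs. The log2 fold change against contralateral veins was -8.20 (standard error 0.94) for early AVFs, -5.95 (1.05) for mid AVFs and -3.67 (0.93) for late AVFs. The early values rest on 0 to 35 counts per library, so the size of the early fall is poorly fixed. *Pappa2* overlaps the same-strand gene 1600012P17Rik, and whether counting used strand is not stated.

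*Igfbp2*, a binding protein with a preference for IGF-II, followed *Pappa2* closely. Contralateral veins ranged from 101 to 757 CPM (median 280) and early AVFs from 0.923 to 14.6 CPM (median 3.93). The mid AVFs measured 18.9, 23.7, 24.1, 25.4 and 57.4 CPM and the late AVFs 37.8, 84.6, 133, 134 and 144 CPM. Early and mid AVFs lay below every contralateral vein, while late AVFs overlapped the low end of the contralateral range. The log2 fold change was -5.98 (SE 0.55) in early and -3.37 (SE 0.59) in mid AVFs. In late AVFs it was -1.53 (SE 0.54) and was not called.

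**Figure D1:**
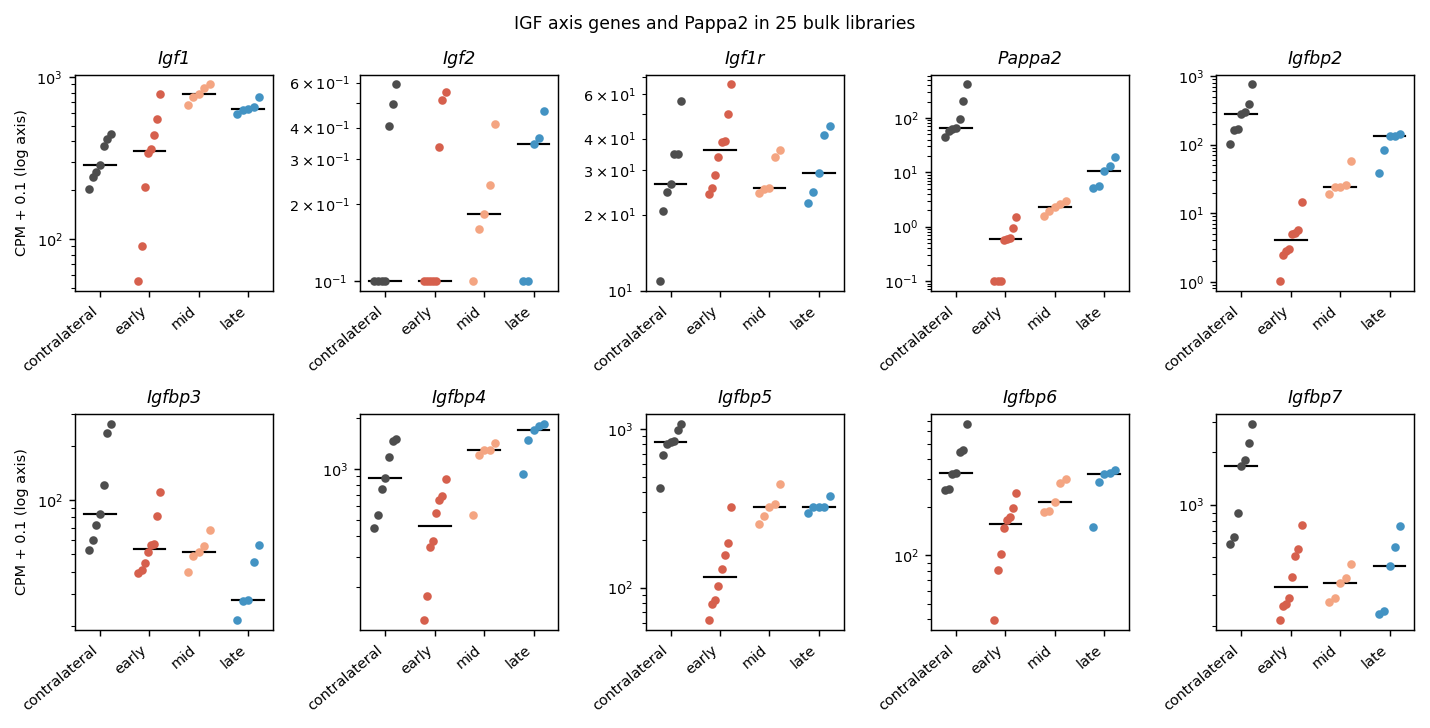
CPM plus 0.1 on a log axis for the 10 members in 25 bulk libraries, each point 1 vessel and each line the group median. *Pappa2* and *Igfbp2* climb from early to late AVFs without regaining the contralateral medians of 65.3 and 280 CPM, *Igf1* in mid and late AVFs lies above every contralateral vein, and *Igf2* is at or under 0.491 CPM throughout.

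The matrix-binding *Igfbp5* fell in all 3 AVF groups. Contralateral veins held 424 to 1080 CPM (median 832) and early AVFs 62.1 to 323 CPM (median 117), with no overlap. The mid AVFs measured 252, 285, 323, 335 and 452 CPM, so the highest passed the lowest vein, and the late AVFs lay together at 297, 322, 323, 324 and 376 CPM, below every vein. The log2 fold change was -2.51 (SE 0.28), -1.30 (SE 0.32) and -1.30 (SE 0.32). Mid and late AVFs differed by -0.0034 on the log2 scale (SE 0.33).

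*Igfbp7*, a secreted protein of vessel walls with low affinity for IGFs, was lower at each time over both sexes together. It was spread widely in contralateral veins, 592 to 2929 CPM with a median of 1667, and measured 215 to 761 CPM in early AVFs (median 335), 274 to 456 CPM in mid AVFs and 233 to 748 CPM in late AVFs. Mid AVFs did not overlap the veins, whereas early and late AVFs did. The log2 fold change was -1.93 (SE 0.35), -2.14 (SE 0.41) and -1.78 (SE 0.41) at the 3 times. The low veins were 27, 632 and 633, at 592 to 889 CPM. In males late AVFs were not lower: the 2 veins had 592 and 650 CPM and the 2 late AVFs 571 and 748 CPM. The male early median was 289 CPM, and male mid AVFs had 376 and 456 CPM. Female medians were 1807 CPM in veins and 243 CPM in late AVFs. *Igfbp7* overlaps Polr2b and Gm34648 on the other strand.

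By edgeR with all libraries *Igfbp6* and *Igfbp3* were each called at 1 time, and DESeq2 also called *Igfbp3* lower in early AVFs. *Igfbp6*, which favours IGF-II, ranged from 258 to 670 CPM in veins (median 330) and from 39.1 to 247 CPM in early AVFs (median 158), with no overlap and a log2 fold change of -1.44 (SE 0.30). Its medians of 216 CPM in mid and 323 CPM in late AVFs came with differences of -0.73 (SE 0.34) and -0.45 (SE 0.33) that were not called. *Igfbp3*, the main carrier of circulating IGF-I, had medians of 84.0 CPM in veins and 53.6, 51.4 and 27.8 CPM in the 3 AVF groups in order of time. The late difference was -1.84 (SE 0.41) and was called. Late AVFs at 21.3 to 55.8 CPM still overlapped veins at 52.5 to 266 CPM, by 1 library.

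*Igfbp4*, the best known substrate of the pappalysin *Pappa*, was lower in early than in late AVFs. Veins ranged from 444 to 1495 CPM (median 887), early AVFs from 127 to 870 CPM (median 459) and late AVFs from 927 to 1849 CPM (median 1688). The early difference of -1.03 (SE 0.34) and the late difference of 0.68 (SE 0.38) against veins were not called. Late AVFs lay above every early AVF, and that difference of 1.71 (SE 0.37) was called.

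*Igf1*, the ligand, was not called by edgeR with all libraries against contralateral veins in any group, and DESeq2 called it higher in mid AVFs. Veins ranged from 205 to 444 CPM (median 286). The mid AVFs measured 668, 752, 787, 853 and 898 CPM and the late AVFs 591, 623, 633, 652 and 753 CPM, all above every contralateral vein. The log2 differences were 1.32 (SE 0.39) in mid and 1.04 (SE 0.39) in late AVFs. Early AVFs were spread from 54.9 to 780 CPM, beyond the veins at both ends, and differed by 0.15 (SE 0.35). The 3 early AVFs lowest in *Igf1*, numbers 6, 7 and 5 at 54.9, 89.9 and 208 CPM, were also the 3 lowest in 8 summed fibroblast markers, at 5777, 3618 and 11820 CPM against 22450 to 40010 CPM in the other 5. The part of fibroblast content in these values was not tested. *Igf1* shares its locus with the antisense Igf1os.

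The other ligand was barely detected, and the receptor was not called. *Igf2* reached at most 23 counts and 0.491 CPM in any library. It was at 0 in 4 of 7 veins, 5 of 8 early, 1 of 5 mid and 2 of 5 late AVFs. No difference was detectable at these counts. The gene overlaps Gm49394 and Mir483 on the same strand and Igf2os on the other. *Igf1r*, the receptor tyrosine kinase, had medians of 26.3, 36.1, 25.4 and 29.1 CPM in veins, early, mid and late AVFs. Its 3 differences from veins were between -0.04 and 0.36 on the log2 scale, with standard errors of 0.33 to 0.37.

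Against contralateral veins 5 of the 9 tested members were called in early AVFs, all lower, and the median log2 fold change of the 9 was -1.44 against -0.0067 over all 12673 tested genes. A gene was called at an adjusted *p* under 0.01 (edgeR's quasi-likelihood test, Benjamini–Hochberg over all tested genes) and a log2 fold change of 1 or more in size. Of all tested genes 12.6% were called in this comparison, 6.17% higher and 6.45% lower. In mid AVFs 4 members were called, all lower, where 6.05% of genes were called, 2.74% higher and 3.31% lower. In late AVFs 4 were called, all lower, where 5.33% were called, 2.49% higher and 2.85% lower. *Pappa2*, *Igfbp5* and *Igfbp7* were called at all 3 times, and *Igf1*, *Igf1r* and *Igfbp4* at none. The 3 comparisons share their 7 veins. Since the members were chosen on these differences, nothing is read from the counts against those shares.

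The late calls sat close to the threshold. Of 33 alternative fits, the late calls of *Pappa2* and *Igfbp5* were each lost in 23, always with the same direction and with log2 fold changes of -4.07 to -2.996 and -1.47 to -1.15. Without late AVF 16 or late AVF 17 no member was called in late AVFs, without late AVF 24 only *Igfbp7* was (1 member), and leaving out any of 11 other libraries gave 2. The same count was 0 without the libraries over 1000 CPM of parathyroid markers and 0 without those over 1000 CPM of skeletal muscle markers. Leaving out the latter also took the mid count from 4 to 0, with log2 fold changes of -5.78 for *Pappa2*, -2.97 for *Igfbp2*, -1.51 for *Igfbp5* and -1.97 for *Igfbp7*. Calls over all genes fell in these fits too. In late AVFs they went from 676 of 12673 to 432 of 12632 without AVF 16, 435 of 12683 without AVF 17, 446 of 12648 without AVF 24, 341 of 12643 without the parathyroid libraries and 118 of 12523 without the muscle libraries. In mid AVFs they went from 767 to 74 of 12523 without the muscle libraries. Nothing particular to the members is read from these losses. The early calls of *Pappa2*, *Igfbp2* and *Igfbp7* held in all 33 fits.

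**Figure D2:**
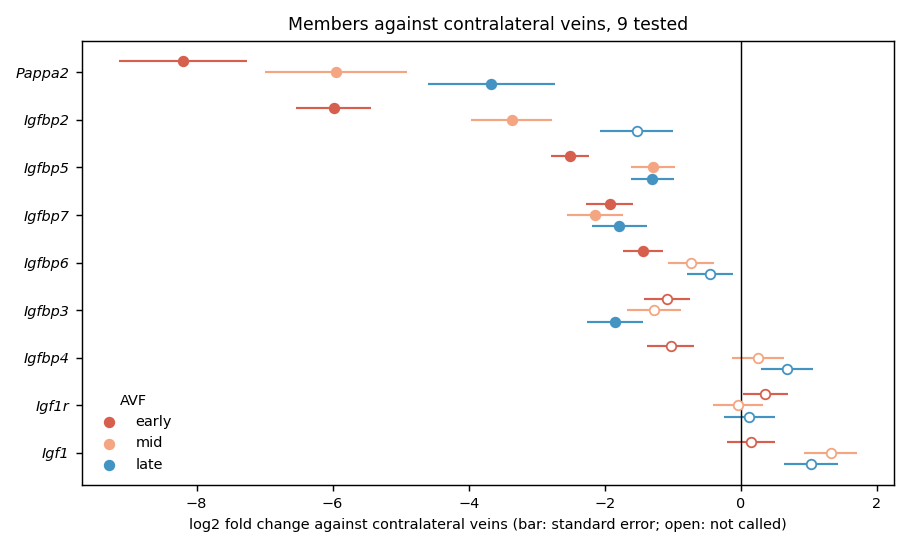
Log2 fold change of the 9 tested members against contralateral veins in early, mid and late AVFs, with bars for the standard error. Filled points were called and open points were not. *Pappa2* runs from -8.20 to -3.67 and *Igfbp2* from -5.98 to -1.53 across the 3 groups, while *Igfbp5* and *Igfbp7* stay within -2.51 to -1.30.

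Between AVF groups, 3 members were called higher in late than in early AVFs: *Pappa2* by 4.53 (SE 0.83), *Igfbp2* by 4.45 (SE 0.53) and *Igfbp4* by 1.71 (SE 0.37) on the log2 scale. None of the late values of these 3 overlapped an early value. Of all genes 3.01% were called in this comparison, 0.726% higher and 2.28% lower, and 15.5% had groups that did not overlap. Without late AVF 24, without the parathyroid libraries or without the muscle libraries only *Igfbp2* was called (1 member), and calls over all genes went from 381 to 41, 71 and 14. By edgeR 0 members were called between mid and early AVFs, where 0.00789% of genes were called (1 gene). DESeq2 called 2 members there, and 474 of 12673 genes. Between late and mid AVFs edgeR called 0 members and 0% of genes, and DESeq2 0 members and 1 of 12673 genes. *Pappa2* and *Igfbp2* did not overlap between mid and early AVFs, as 8.51% of genes did not, and *Pappa2* did not between late and mid AVFs, as 2.11% did not. Their log2 differences were 2.25 (SE 0.79) and 2.61 (SE 0.50), and 2.29 (SE 0.90) for *Pappa2* in late against mid AVFs.

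Per kilobase of exon, the order of the members differed between vessels. In contralateral veins the median levels were 1379 CPM per kb for *Igfbp7*, 297 for *Igfbp6*, 201 for *Igfbp4*, 152 for *Igfbp2*, 138 for *Igfbp5*, 28.9 for *Igf1*, 26.8 for *Igfbp3*, 6.35 for *Pappa2* and 1.57 for *Igf1r*. Neighbours in that order had overlapping ranges, except *Igfbp5* above *Igf1* and *Pappa2* above *Igf1r*. In late AVFs *Igfbp4* at 382 and *Igfbp7* at 368 stood together at the top, with overlapping ranges of 210 to 419 and 193 to 618, and *Igf1* at 63.9 had passed *Igfbp5* at 53.9, again with overlapping ranges. In early AVFs *Igfbp2* at 2.13 was next to *Igf1r* at 2.15.

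No member passed the test of whether group differences varied with sex, and a difference in level between sexes was not tested. In the test of the group by sex interaction 0 of 9 members had an adjusted *p* under 0.05 (edgeR), against 13 of the 12673 genes, and 1 member (*Igfbp7*) had an unadjusted *p* under 0.05. *Igfbp7* had the smallest value (adjusted *p* = 0.567), and its 3 veins at the low end included both male veins, at 592 and 650 CPM. Only 2 male veins entered, so an interaction was hard to detect. Without early AVF 10, *Igf1* passed that threshold.

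Among the 12673 tested genes the 5 whose levels were most like *Pappa2* over the 25 libraries were Parm1 (Spearman's rho 0.963), Mill2 (0.952), Gdf10 (0.952), Cald1 (0.95) and Gucy1a1 (0.947). Cald1 and Gucy1a1 are genes of contractile cells, and Gdf10, a secreted factor of the TGF-β family, is among the quiescent fibroblast markers used here. Their early medians were 28.2, 6.50, 57.4, 368 and 33.8 CPM against 182, 52.8, 550, 1209 and 416 CPM in veins. The 2 most alike were Cald1 (0.963) and Itga1 (0.949) for *Igfbp2*, Prss23 (0.953) and Ppp1r12b (0.931) for *Igfbp5*, and Rbpms (0.935) and Bvht (0.908) for *Igfbp7*. They were Mfap5 (0.922) and Col6a3 (0.919), both matrix genes, for *Igf1*, Gas6 (0.910) and Sfrp2 (0.902) for *Igfbp4*, Clec3b (0.938) and Qpct (0.885) for *Igfbp6*, Sec62 (0.843) and Eid2 (0.829) for *Igfbp3*, and Ank (0.808) and Snn (0.799) for *Igf1r*. Within the list *Pappa2* went with *Igfbp2* (rho 0.931) and *Igfbp5* (0.871) and not with *Igf1* (-0.028). The libraries share their groups and their scaling, so these values describe the time course and are no test.

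Of 33 other genes of the pathway, 27 were tested, and 5 were called in early AVFs, 3 higher and 2 lower, where 12.6% of all genes were. This list was also drawn up with earlier results of these data known. The adjusted *p* values here and in the next paragraph are therefore descriptive. *Pappa*, the second pappalysin, was at 0 to 0.237 CPM in veins, 4 of 7 at 0, and rose to 4.68 to 27.4 CPM in early AVFs, by 7.76 on the log2 scale (SE 0.91, adjusted *p* = 5.63e-07, edgeR). It was still higher in mid (7.81, SE 0.93, adjusted *p* = 2.02e-06) and late AVFs (7.57, SE 0.93, adjusted *p* = 3.51e-06), and no AVF overlapped a vein. *Adam12*, a membrane metalloprotease that also cuts IGFBPs, rose by 5.31 in early (SE 0.94, adjusted *p* = 0.000154) and 3.78 in late AVFs (SE 0.92, adjusted *p* = 0.00697).

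*Stc1*, a stanniocalcin that inhibits pappalysins, fell. It measured 135 to 413 CPM in veins and 9.54 to 69.2 CPM in early AVFs, and the log2 difference was -3.32 (SE 0.40, adjusted *p* = 7.14e-07, edgeR). It was still lower in mid (-2.53, SE 0.46, adjusted *p* = 0.00046) and late AVFs (-2.83, SE 0.47, adjusted *p* = 0.000211), with no overlap at any time. *Stc2*, the related inhibitor, had medians of 11.4 CPM in veins and 1.65 CPM in early AVFs but spread down to 0 among veins and was not called (adjusted *p* = 0.0197). *Htra1*, a secreted serine protease, fell by 2.05 in early AVFs (SE 0.30, adjusted *p* = 1.47e-05) and was higher in late than in early AVFs by 1.52 (SE 0.32, adjusted *p* = 0.00448). *Igf2bp2*, which binds *Igf2* mRNA, rose by 3.36 in early AVFs (SE 0.84, adjusted *p* = 0.00411). The receptors *Igf2r* and *Insr* were not called at any time: *Igf2r* had medians of 91.7, 116, 116 and 87.6 CPM and *Insr* 70.8, 54.96, 76.7 and 54.0 CPM in veins, early, mid and late AVFs. Late AVFs had 3 pathway genes called (*Pappa*, *Adam12* and *Stc1*), where 5.33% of all genes were.

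**Figure D3:**
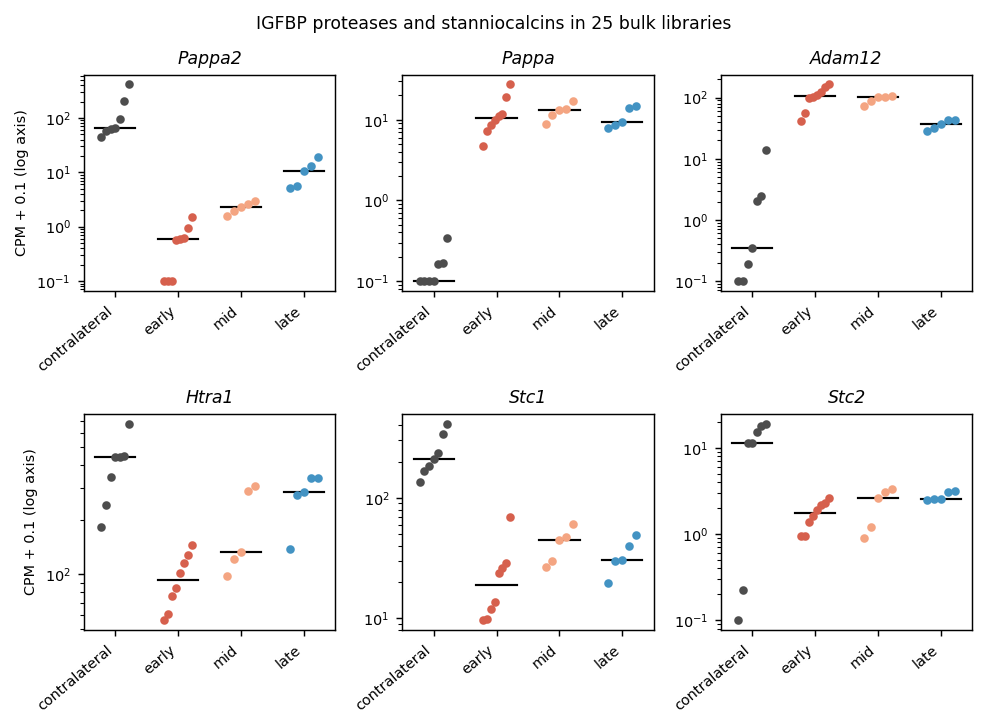
CPM plus 0.1 on a log axis for 6 genes in 25 bulk libraries, each point 1 vessel and each line the group median. *Pappa* goes from at most 0.237 CPM in veins to 4.68 CPM or more in AVFs while *Pappa2* and *Stc1* go down, and *Stc2* is spread from 0 to 18.9 CPM among veins.

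Single-cell libraries showed which cells carried the members. The members and pathway genes were left out of the clustering. Of 26438 barcodes, 16893 had 200 to 6000 genes and at most 10% mitochondrial counts: 6319 of contralateral veins, 4753 of early AVFs and 5821 of late AVFs. Median depth was 2751, 8951 and 15425 UMIs per cell. The libraries shared 14 to 19 barcodes. Fibroblasts numbered 1908, 403 and 1961, mono/macros 672, 2047 and 1618, smooth muscle cells 31, 235 and 516, and endothelial cells 807, 68 and 73. Contralateral smooth muscle cells were few, although smooth muscle markers were high in the bulk veins. Values below are UMI CPM, the UMIs of a gene scaled as counts-per-million of all UMIs of a lineage in a library, with 95% Poisson intervals that cover counting error only, since each condition was 1 library and no test was possible. The barcode filter left out 11.9% of early barcodes for having over 6000 genes and 0.225% of contralateral ones. Hemoglobin and other erythroid markers summed to 15140 UMI CPM in contralateral fibroblasts, 515 in early and 2.46 in late ones. Whether these came from free RNA or from red cells in the same droplets was not tested. Different clusters held the lineage in veins and AVFs: 1808 of 1908 contralateral fibroblasts were in 1 cluster, and 396 of 403 early and 1910 of 1961 late ones in another.

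*Igf1* came from fibroblasts and mono/macros, which moved in opposite directions. In fibroblasts the level was 399 UMI CPM (388 to 410) in contralateral veins, 948 (930 to 966) in early and 742 (734 to 749) in late AVFs. In mono/macros it was 501 (478 to 525), 139 (134 to 143) and 180 (174 to 185). These are 2.38 times the contralateral level in early fibroblasts and 0.277 times in early mono/macros. With a wider cell filter (no limit of 6000 genes, mitochondrial limit 20%, cells clustered anew) the ratios were 1.73 and 0.304. Fibroblasts held 71.4% of the *Igf1* UMIs of the contralateral library, 69.4% of the early and 87.0% of the late. T cells, which should lack the gene, had 12.6, 22.8 and 33.0 UMI CPM in contralateral, early and late libraries, and contralateral erythroid cells 14.0. Contralateral smooth muscle cells had 10 UMIs in all.

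Different resident-like clusters held the mono/macros of veins and AVFs. The resident-like cluster that held 599 of the 672 contralateral cells had 576 UMI CPM (548 to 605), and hemoglobin genes stood among its leading genes. Its few AVF cells had 388 (14 early cells) and 652 (11 late cells). Another resident-like cluster held 387 of 474 early resident-like cells at 269, and a further one 692 of 729 late ones at 281. Over all resident-like cells the level was 538, 259 and 290 in contralateral, early and late libraries. Monocyte-like cells had 19.4 in early and 105 in late AVFs, and inflammatory-like cells 125 and 97.2. In fibroblasts the quiescent-like cells of contralateral veins had 421 UMI CPM (409 to 434), against 1259 and 899 in the late-like cells of early and late AVFs. Adventitial-like cells, 139, 30 and 569 in number, had 191, 1245 and 370. Different clusters held them: 137 of the contralateral ones were in 1 cluster, and 26 of the early and 552 of the late ones in another. The late-like early cells were 76 of 403. Names were given from marker genes, and a cluster that failed any of the criteria was left unnamed. The unnamed fibroblasts, 446 of 1908 contralateral, 296 of 403 early and 291 of 1961 late cells, had 417, 840 and 972 UMI CPM. One unnamed cluster, with 285 early and 234 late cells, had all 5 activated markers up, but its 10 leading genes held *Thbs4* and *Cilp* of the late list and only *Tnc* of the activated one. Another, with 403 contralateral cells, had 4 quiescent markers up, but was shallow and led by hemoglobin genes.

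**Figure D4:**
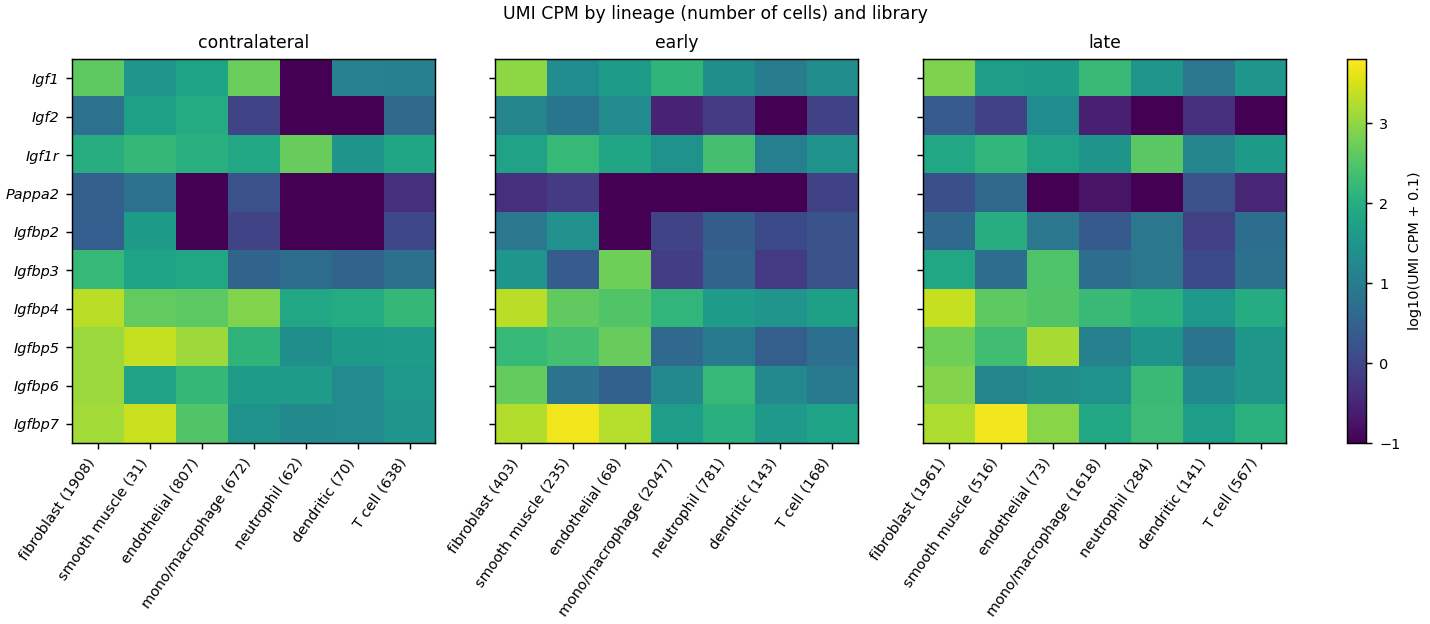
Heat map of log10(UMI CPM + 0.1) for the 10 members (rows) in 7 lineages (columns, with the number of cells) of the 3 single-cell libraries. *Igfbp4* is brighter in fibroblasts than in the other lineages drawn, *Igfbp7* reaches 5268 UMI CPM in late smooth muscle cells, *Igf1r* is highest in neutrophils, and *Pappa2* does not pass 6.43 UMI CPM in any lineage.

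*Igfbp5* was lower in AVFs in both fibroblasts and smooth muscle cells. In fibroblasts it went from 1176 UMI CPM (1158 to 1195) in contralateral veins to 166 (159 to 174) in early AVFs and 555 (548 to 561) in late AVFs, and in smooth muscle cells from 2354 (2186 to 2530) to 236 (223 to 250) and 209 (201 to 217). These are 7.08 and 9.97 times lower in early AVFs than in veins. Endothelial cells had 1242, 488 and 1491, but the early value came from 9 of 68 cells. Among fibroblasts the adventitial-like cells carried most, with 4644 UMI CPM in contralateral veins, 335 in early and 1211 in late AVFs. The early value came from 30 cells, and most adventitial-like cells of veins and of AVFs were in different clusters. Quiescent-like contralateral cells had 715 and late-like cells of late AVFs 166. In mono/macros the 132 UMI CPM of the contralateral library were mostly from 10 cells in clusters left unnamed, which held 342 of the 458 UMIs.

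*Igfbp7* was higher in the AVF libraries within cells. In smooth muscle cells its level was 2649 UMI CPM (2472 to 2837) in contralateral veins, 5065 (5003 to 5128) in early and 5268 (5228 to 5308) in late AVFs, and in fibroblasts 1374 (1354 to 1394), 1743 (1718 to 1767) and 1614 (1603 to 1626). Endothelial cells had 314 (293.8 to 334.5), 1821 (1721 to 1925) and 898 (817 to 984). Each of the 3 lineages was higher in both AVF libraries than in the contralateral one. In bulk AVFs, whose early and late groups had earlier mean harvest days, *Igfbp7* was lower than in veins. Smooth muscle cells gave 50.1% of the *Igfbp7* UMIs of the early library and 44.0% of the late one, and fibroblasts 87.9% of those of the contralateral library. T cells, which should lack the gene, had 33.7, 60.6 and 118, so the level outside its source cells also differed between libraries. Smooth muscle cells rose in that same order, whereas fibroblasts and endothelial cells were highest in early AVFs.

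*Igfbp3* differed between lineages. In fibroblasts it was 161 UMI CPM (155 to 168) in contralateral veins, 32.7 (29.5 to 36.2) in early and 74.0 (71.6 to 76.4) in late AVFs. In endothelial cells it was 76.0 (66.4 to 86.6), 550 (496 to 608) and 302 (256 to 353), though with only 68 early and 73 late cells, of which 22 and 30 had a UMI. Mono/macros, a lineage that should hold little, had a UMI in 19 of 2047 early cells.

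*Igfbp4* was the most abundant member in fibroblasts, at 2048, 1973 and 2414 UMI CPM in the 3 libraries, and 83.6%, 74.3% and 91.7% of its UMIs came from them. With the wider cell filter the early level was 0.555 times the contralateral one, where it was 0.963 times with the main filter. In mono/macros it was 764 (735 to 793), 145 (141 to 150) and 172 (167 to 177), and T cells of the contralateral library had 157. *Igfbp6* was also a fibroblast gene, at 1207, 458 and 812 UMI CPM with 92.1%, 79.6% and 96.0% of its UMIs. Neutrophils of early and late AVFs held it at 165 (152 to 180) and 178 (153 to 206), against 8.66 and 34.8 in T cells of those libraries. Contralateral neutrophils had 43.5 (19.9 to 82.6) on 9 UMIs, near the 36.4 of contralateral T cells.

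*Igfbp2* UMIs came mostly from smooth muscle cells in late AVFs (78.1%), where early AVFs had 49.5% from them and 33.3% from fibroblasts. In the contralateral library fibroblasts held 34 of the 68 UMIs and smooth muscle cells 13. The level in smooth muscle cells was 41.8 UMI CPM (22.3 to 71.5) in contralateral veins, 27.3 (22.9 to 32.3) in early and 96.1 (90.8 to 102) in late AVFs. The contralateral value rested on 13 UMIs in 3 of 31 cells, and the unnamed cluster 5 reached 48.3 UMI CPM there on 6 UMIs. With the wider cell filter the early level was 2.16 times the contralateral one, where it was 0.652 times with the main filter. The direction in early smooth muscle cells thus depends on the cell filter. In fibroblasts the level was 2.62, 8 and 4.24. Late smooth muscle cells with a UMI were 91 of 516. The late library had 15.9 UMI CPM in all and the contralateral library 2.33, the reverse of the bulk order of vessels. Late bulk AVFs had an earlier mean harvest day.

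*Pappa2* was near the limit of detection, with 46, 8 and 136 UMIs in the 3 libraries. These totals are not scaled, and median depth was 2751, 8951 and 15425 UMIs per cell. Contralateral mono/macros held 5 of the 46. Fibroblasts of contralateral veins held 38 of the 46, in 18 of 1908 cells, or 2.93 UMI CPM (2.07 to 4.02), those of early AVFs 4 UMIs, or 0.352 (0.0958 to 0.900), and those of late AVFs 70 UMIs in 53 of 1961 cells, or 1.40 (1.09 to 1.77). Smooth muscle cells had 2, 3 and 56 UMIs, and 4.39 UMI CPM (3.32 to 5.70) in late AVFs. The 2 contralateral UMIs, from only 31 smooth muscle cells, amount to 6.43 UMI CPM, above the fibroblast level there. T cells had 1 UMI in each library (638, 168 and 567 cells), with a median depth of 5586 UMIs per cell over the 3 libraries against 16724 in fibroblasts. Endothelial cells had 0 of 807, 68 and 73 cells with a UMI, which allows up to 1.01 UMI CPM in contralateral veins at 3 counts.

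Among the named lineages *Igf1r* was highest in neutrophils in every library, at 479 (389 to 583), 247 (231 to 265) and 379 (342 to 419) UMI CPM, and next in smooth muscle cells at 158, 167 and 150. It was lower in fibroblasts at 98.0, 58.5 and 75.4 and in mono/macros at 72.1, 27.3 and 30.1. *Igf2* was found in contralateral endothelial cells, at 87.8 UMI CPM (77.4 to 99.1) from 60 of 807 cells, against 20.5 and 21.6 in early and late AVFs from 14 and 11 UMIs. Endothelial cells held 64.5% of the contralateral *Igf2* UMIs, whereas fibroblasts held 69.3% of the early and 78.0% of the late ones. Fibroblasts had 6.39, 15.5 and 2.34 UMI CPM, and smooth muscle cells 54.7, 7.27 and 0.784. Bulk veins reached at most 0.491 CPM of *Igf2*, and the reason for the gap to the contralateral single-cell levels was not tested.

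**Figure D5:**
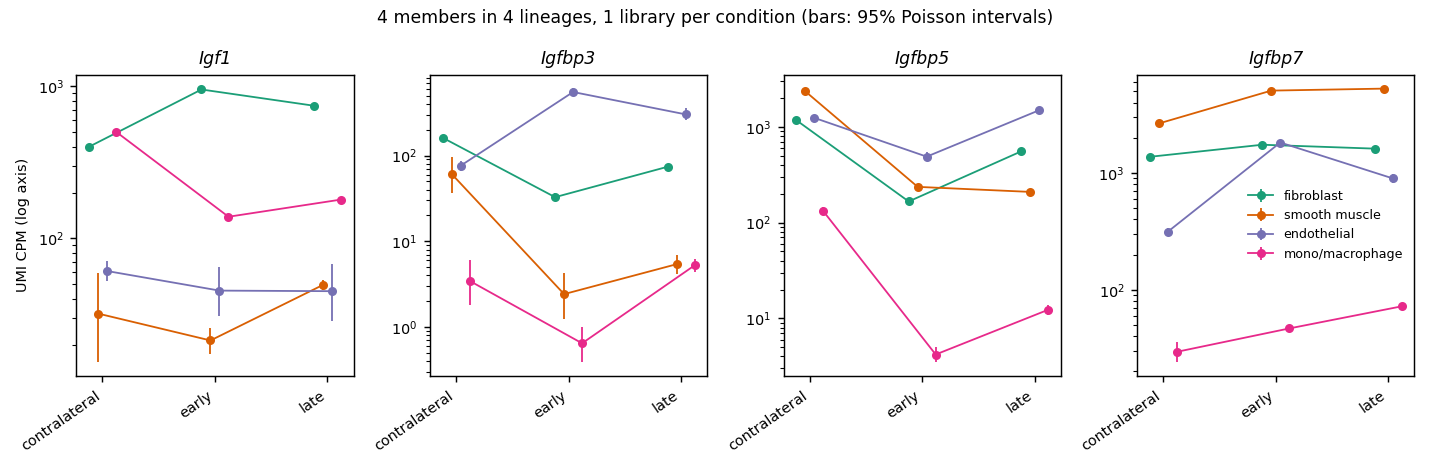
UMI CPM on a log axis for *Igf1*, *Igfbp3*, *Igfbp5* and *Igfbp7* in 4 lineages of the contralateral, early and late libraries, with 95% Poisson intervals. *Igf1* goes up in fibroblasts (399 to 948) and down in mono/macros (501 to 139), *Igfbp3* goes down in fibroblasts and up in endothelial cells, and *Igfbp7* is higher in AVFs in all 4 lineages. The *Igfbp7* levels of mono/macros (29.4, 46.7 and 72.2) lie below those of T cells, which should lack the gene (33.7, 60.6 and 118).

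The pathway genes around *Pappa2* were also placed in cells. *Pappa* was in fibroblasts, at 5.16 UMI CPM (4.00 to 6.55) in contralateral veins, 19.3 (16.8 to 21.98) in early and 6.55 (5.86 to 7.30) in late AVFs. The contralateral and late intervals overlapped, whereas bulk veins had at most 0.237 CPM and late bulk AVFs 7.88 to 14.7 CPM. The reason for this gap between the assays was not tested. *Stc1* in fibroblasts went from 49.7 (45.9 to 53.6) to 4.31 (3.19 to 5.70) and 8.29 (7.51 to 9.13), and contralateral endothelial cells held it at 90.5 (80.0 to 102). *Stc2* was highest in contralateral T cells, at 49.0 (41.3 to 57.6), and was at 2.36 in early T cells. *Adam12* in fibroblasts was 3.54, 161 and 26.0 UMI CPM.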

How the data were processed

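Bulk RNA was made from single ground vessels and sequenced after poly(A) selection with paired reads, and single-cell libraries from enzymatically digested, pooled vessels with the 10x 3′ v3 kit. The authors deposited whole-number read counts per gene for the bulk libraries and UMI counts per gene and cell for the single-cell libraries, as Cell Ranger 6.0.2 wrote them. The submitters' processing notes name STAR, Cell Ranger and mm10/GRCm38 without roles, and for the counting program and its use of strand nothing is stated (not given in the sources used here).

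Bulk counts were scaled by TMM and tested with edgeR 4.0.16 (R 4.3.3) quasi-likelihood fits over all 25 libraries, with the group as the term. Genes needed a mean normalized count of at least 100, which left 12673 of 56980, and *p* values were adjusted by Benjamini–Hochberg over all of them. Calls needed an adjusted *p* under 0.01 and a log2 fold change of 1 or more in size. The labels give single vessels as replicates and say no more of the animals, so the tests measure the spread between these samples. Depth was 20254173 to 29913427 counts in veins, 23676215 to 67457501 in early, 27021483 to 33395623 in mid and 27855449 to 36879746 in late AVFs. The bulk script was tested on simulated data.

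Cells that had 200 to 6000 genes, with mitochondrial counts of 10% or less, were clustered with scanpy 1.11.5 (2000 variable genes, 12 principal components, 20 neighbours, Leiden resolution 0.5) and named from marker lists. The doublet caller marked 0, 2 and 120 cells and so did not work in the contralateral and early libraries, and no doublets were removed. All members were named in each comparison, together with *Pappa*, *Stc1*, *Stc2*, *Igf2r*, *Insr*, up to 12 other pathway genes called against veins, and the genes of most similar level (5 for *Pappa2*, 2 for each other member). The members and lists were chosen with earlier results of these data known. Alternatives were DESeq2 1.42.0, other size factors, filters and thresholds, sex in the model, female mice alone, each library left out, and other single-cell settings.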

Additional observations from a re-analysis of the deposited data

Results flagged for a closer look

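Among 36 pairs of a tested member and a bulk group, 3 held a library that lay far from the rest on the log2(CPM + 0.5) scale, each in a group of 5. *Igfbp2* in mid AVF 9 was 57.4 CPM, where the other mid AVFs had 18.9 to 25.4 CPM. *Igfbp4* in mid AVF 15 was 536 CPM (535.9), where the others had 1203 to 1414 CPM. *Igfbp6* in late AVF 24 was 151 CPM, where the others had 287.9 to 342.1 CPM. Dixon's rule marks about 1 in 20 groups by chance, and the causes were not tested.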

How the results depend on the processing

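Every called fold change kept its direction in the 33 alternative fits. No paired analysis was possible because the groups compared share no replicate numbers. The early count of 5 members was 5 to 6 as single libraries were left out and 3 in female mice alone. The mid count of 4 was 3 to 5 as libraries were left out, 1 in female mice alone and 0 without the skeletal muscle libraries. The late count of 4 was 0 to 4 as libraries were left out, 2 with DESeq2 size factors, 2 with sex in the model, 1 in female mice alone, and 0 without the parathyroid or without the skeletal muscle libraries. The late against early count of 3 was 1 to 4 as libraries were left out, 0 in female mice alone, and 1 without the parathyroid or without the skeletal muscle libraries. The mid against early count of 0 was 0 to 2 as libraries were left out, 2 with DESeq2 and 3 at an adjusted *p* under 0.05. Over all 12673 genes these last 2 settings called 474 and 482, against 1 in the main fit. The late against mid count stayed 0. The sex interaction count of 0 was 0 to 1. The pathway count in early AVFs, 5, was 5 to 7 as libraries were left out, 8 with DESeq2, 8 at an adjusted *p* under 0.05 and 1 in female mice alone. Over all 12673 genes early calls went from 1599 to 2440 with DESeq2 and 2520 at 0.05, and to 327 of 12537 in females. In late AVFs the pathway count was 3, 2 to 3 as libraries were left out, 5 with DESeq2 and 0 in female mice alone. Late calls over all genes went from 676 to 1294 with DESeq2 and to 173 of 12537 in females. Members at 2 or more times the contralateral level in early fibroblasts numbered 3 (*Igf1*, *Igf2* and *Igfbp2*), and 1 with the wider cell filter (*Igfbp2*). The share of all genes at that ratio was not computed, so nothing is read from these counts. Contralateral and early fibroblasts held only 83 and 176 UMIs of *Igf2* and 34 and 91 of *Igfbp2*. The wider filter had no gene limit and a mitochondrial limit of 20%. Of 120 single-cell levels, 62 moved beyond their counting interval with it. The number was 77 when cells were thinned to 1000 UMIs, 11 at Leiden resolution 1 and 10 without doublets. Calls over all genes fell as well, for late against early from 381 to 0 in female mice alone, and for mid AVFs from 767 to 192 there. Leaving out the parathyroid and muscle libraries was chosen after seeing the data. Fits with fewer samples have fewer degrees of freedom, and the other causes were not tested.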
